A study of Mus musculus with 11 samples.

Results

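The MHC class II presentation genes are the 10 genes that build, load and switch on the cell-surface molecules by which macrophages and related cells show peptides to CD4 T cells. They were chosen by name (H2-Aa, H2-Ab1, H2-Eb1, Cd74, H2-DMa, H2-DMb1, H2-DMb2, H2-Oa, H2-Ob and Ciita), and all 10 were found among the 16894 genes of the deposited table by their Entrez identifiers. Their RNA was measured in brain microglia of mice in 11 libraries, every one labelled with the genotype Cx3cr1-GFP, a reporter that is green in microglia and in other cells that express Cx3cr1. The groups were primary microglia grown in cell culture (n = 3), resident microglia (n = 4) and transplanted microglia (n = 4). Resident and transplanted cells were purified by fluorescence-activated cell sorting, the transplanted ones 3 months after they were given. The protocol on the labels is a chow of 600 mg/kg PLX3397, a drug that depletes microglia by blocking the receptor Csf1r, given in 3 cycles before transplantation. It stands on all 11 libraries alike, cultured ones included, so which mice ate it cannot be read from the labels. The source of the transplanted cells and the age of the mice are not given there either. Nothing in the labels ties replicates to separate animals or cultures, so the p-values below measure the spread between libraries, which may be technical.

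A class II molecule is a pair of an alpha and a beta chain. The invariant chain, encoded by Cd74, fills the binding groove of newly made pairs until they reach endosomes. There it is cut down to a short peptide, which the editor H2-DM exchanges for peptides of taken-up protein, while H2-O holds H2-DM back. The coactivator Ciita is recruited to a shared promoter element by RFX, CREB and NF-Y proteins and switches the set on. In the healthy brain most microglia carry little class II, and macrophages at the brain's borders carry more.

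The labelled cell type was checked first with 10 microglia marker genes. Their summed level was 43000 to 49800 CPM (counts scaled to a common library total) in resident libraries, 38400 to 47600 in transplanted ones and 1520 to 2020 in cultured ones. All 10 were lower in cultured than in resident cells, beside 37.2% of all genes tested. The cultured libraries, though labelled microglia, thus held little of these defining markers. Between transplanted and resident cells 2 of the 10 were lower and 1 was higher, beside 5.86% and 7.17% of all genes tested. Sall1 and Siglech were lower and Olfml3 higher, each 1.32-fold. Gpr34 lay 1.43-fold lower and did not pass the test (edgeR, adjusted p = 0.0505). Total counts were 26705034 to 28219696 in cultured, 19055655 to 19965631 in resident and between 18692721 and 19761208 in transplanted libraries. The cultured libraries were thus the deepest.

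The shared promoter element is shown because it is the sequence by which Ciita is known to reach these genes, and because genes that carry it did not move together in these cells. RefSeq promoter windows on GRCm38.p6, running from 250 bases before to 50 bases after the start, were matched for 7 members (8 windows, H2-DMa having 2). They were searched on both strands for GNAAC, the core of the X box, followed after 15 to 40 bases by GATTGG, the core of the Y box. These letters and the spacing were chosen after the sequences had been seen. The pair was found in the windows of 5 members and in 1.45% of 32851 promoter windows of the same length. The Y core alone was in 16.11% of them and the short X core alone in 84.85%. The 5 stretches are printed from the gene's own strand, 5′ to 3′, with the X and Y cores in capitals.
H2-Aa (chr17:34287859-34287916, minus strand): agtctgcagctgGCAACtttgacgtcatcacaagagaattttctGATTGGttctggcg
H2-Eb1 (chr17:34305764-34305820, plus strand): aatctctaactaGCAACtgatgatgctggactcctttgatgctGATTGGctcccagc
H2-Oa (chr17:34092291-34092348, plus strand): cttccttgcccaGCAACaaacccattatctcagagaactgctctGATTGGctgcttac
H2-Ob (chr17:34238806-34238860, plus strand): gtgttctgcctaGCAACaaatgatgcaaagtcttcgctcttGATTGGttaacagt
H2-DMb1 (chr17:34153085-34153142, plus strand): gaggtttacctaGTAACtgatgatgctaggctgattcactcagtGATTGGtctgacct
The cores were 24 bases apart in H2-Ob, 26 in H2-Eb1 and 27 in H2-Aa, H2-Oa and H2-DMb1, and the Y core lay 44 to 62 bases before the start. The H2-DMb2 window held no such pair, and neither did the H2-DMa windows. No match says only that these letters are not in the window.

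In transplanted cells the class II chains and the invariant chain were far below their resident level, while the genes of peptide editing and Ciita lay much nearer to it. Of the 10 members, all of which passed the filter on low counts, 5 were lower in transplanted than in resident cells and 2 were higher (edgeR's quasi-likelihood test, p adjusted across the whole table by Benjamini-Hochberg, threshold 0.05). Over all 11929 genes tested, 5.86% were lower and 7.17% higher. Those 855 higher and 699 lower genes became 519 and 520 without resident replicate 2, and 511 and 561 without resident replicate 3. The 5 lower members were the 4 of H2-Aa, H2-Eb1, H2-Ab1 and Cd74, with a median log2 fold change of -3.05, and H2-Ob. The median over all genes was 0.02. In bulk RNA, fewer cells that express a gene and less of its RNA per cell cannot be told apart.

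H2-Aa encodes the alpha chain of the I-A molecule. Its level was 13.8, 40.6, 26.7 and 26.5 CPM in the resident libraries and 1.55, 2.59, 0.885 and 2.61 CPM in the transplanted ones. The groups did not overlap, and the lowest resident library was far above the highest transplanted one. The log2 fold change of transplanted against resident cells was -3.81 ± 0.38 (SE), a level 14.0-fold lower (edgeR, adjusted p = 0.000133). In cultured libraries H2-Aa stood at 1.38, 0.726 and 1.17 CPM, from 15 to 29 counts a library. It was lower there than in resident cells, by a log2 fold change of -4.57 ± 0.42 (edgeR, adjusted p = 9.14e-06). Between transplanted and cultured cells the difference of 0.79 ± 0.46 did not pass the test (edgeR, adjusted p = 0.148).

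H2-Eb1, the beta chain of the I-E molecule, followed the same order of groups. Resident libraries had 16.3, 43.2, 28.9 and 27.0 CPM, and transplanted ones 1.5, 2.45, 1.07 and 3.29 CPM. The ranges did not overlap, with a log2 fold change of -3.79 ± 0.36, or 13.8-fold lower in transplanted cells (edgeR, adjusted p = 0.000108). Cultured libraries had 0.573, 0.823 and 0.536 CPM, which rests on 11 to 17 counts each. That was the lowest level of this chain in any group, with a log2 fold change of -5.43 ± 0.40 from resident cells (edgeR, adjusted p = 2.23e-06). Transplanted cells were higher than cultured ones by 1.67 ± 0.48 (edgeR, adjusted p = 0.0102), a call lost with the replicate number as a block (1.31, adjusted p = 0.0629). The I-E alpha chain H2-Ea and the second beta chain gene H2-Eb2 were too low to be tested.

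H2-Ab1 encodes the beta chain that pairs with H2-Aa, yet in culture the pair parted. Its level was 34.6, 74.7, 58.0 and 53.6 CPM in resident libraries and 45.1, 60.1 and 44.1 CPM in cultured ones. These ranges overlapped, and the log2 fold change of -0.11 ± 0.23 did not pass the test (edgeR, adjusted p = 0.682), whereas on log2(TPM + 1), where the median gene stood at -0.95, it was -1.17 and passed (limma, adjusted p = 0.00106). Transplanted libraries had 10.6, 8.26, 8.52 and 16.7 CPM, below every library of both other groups. The log2 fold change from resident cells was -2.32 ± 0.27, or 4.98-fold lower (edgeR, adjusted p = 0.000333), and from cultured cells -2.19 ± 0.25 (edgeR, adjusted p = 3.26e-05; -1.08 on log2(TPM + 1), where the median gene stood at 0.98).

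Cd74, which besides guarding class II chains also acts at the cell surface as a receptor for the cytokine Mif, had the level pattern of H2-Ab1. Resident libraries had 71.1, 151, 120 and 110 CPM, and cultured ones 104, 148 and 111 CPM. Those groups overlapped, with a log2 fold change of 0.14 ± 0.23 in cultured cells (edgeR, adjusted p = 0.597). On log2(TPM + 1) it turned to -0.92 (limma, adjusted p = 0.00449), 0.03 above the median gene. Transplanted libraries had 24.2, 27.2, 22.7 and 40.4 CPM, again below all others. Their log2 fold change was -1.97 ± 0.24 from resident cells, 3.93-fold lower (edgeR, adjusted p = 0.000421), and -2.10 ± 0.22 from cultured cells (edgeR, adjusted p = 1.45e-05; -0.99 on log2(TPM + 1)).

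**Figure D1:**
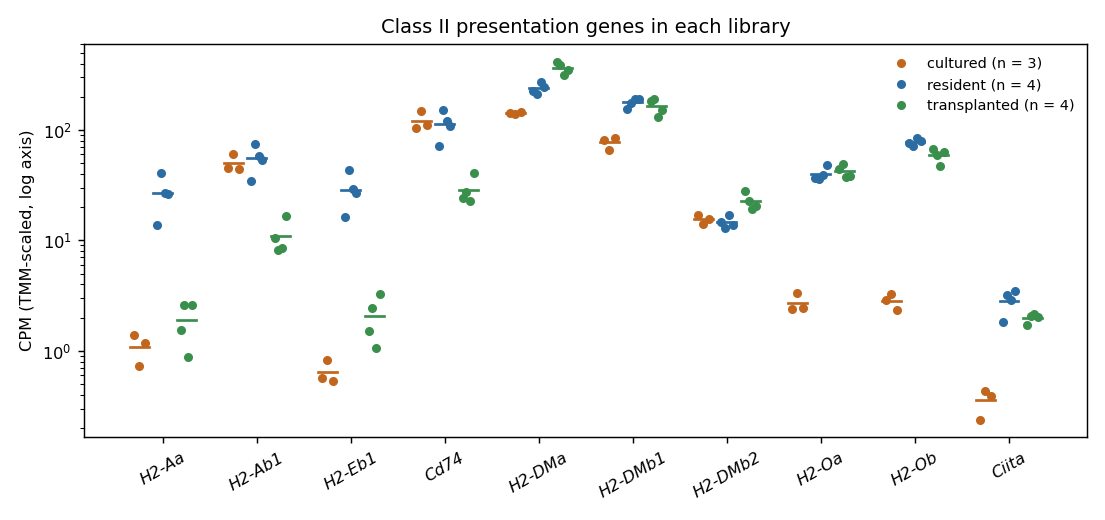
Level of each of the 10 class II genes in each library (CPM, log axis) in cultured (n = 3), resident (n = 4) and transplanted (n = 4) cells; each point is 1 library and each bar a group mean. H2-Aa, H2-Eb1, H2-Ab1, Cd74 and, by a smaller margin, H2-Ob sit lower in all transplanted libraries than in any resident library. H2-DMa and H2-DMb2 sit higher in all transplanted libraries than in any resident library.

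The editor genes moved otherwise. Of the 5 editor genes, 2 were higher in transplanted than in resident cells, 1 was lower and 2 were not called, with a median log2 fold change of 0.08. H2-DMa, the alpha chain of H2-DM, had 224, 211, 271 and 244 CPM in resident and 414, 385, 318 and 353 CPM in transplanted libraries. Every transplanted library exceeded every resident one. The log2 fold change was 0.63 ± 0.10, or 1.55-fold higher (edgeR, adjusted p = 0.00282). Cultured libraries, at 142, 139 and 147 CPM, lay below both, with a log2 fold change of -0.70 ± 0.11 from resident cells (edgeR, adjusted p = 0.000395).

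H2-DMb1 and H2-DMb2 encode alternative beta chains of H2-DM and are neighbouring near-identical copies. The deposited counts of both, and of H2-DMa, carry decimals in all 11 libraries, so how reads were shared between the copies is uncertain. H2-DMb1 had 155, 175, 193 and 192 CPM in resident, 183, 193, 132 and 152 CPM in transplanted and 81.3, 66.4 and 83.8 CPM in cultured libraries. Resident and transplanted ranges overlapped (log2 fold change -0.11 ± 0.12, edgeR, adjusted p = 0.606), and cultured cells lay below resident ones by -1.17 ± 0.13 (edgeR, adjusted p = 2.55e-05). H2-DMb2, the weaker copy, had 14.8, 12.9, 16.9 and 13.9 CPM in resident, 28.2, 22.9, 19.2 and 20.7 CPM in transplanted and 16.9, 14.2 and 15.5 CPM in cultured libraries. It was higher in transplanted than in resident cells by 0.64 ± 0.13 (edgeR, adjusted p = 0.01) without overlap, and cultured and resident cells did overlap (0.13 ± 0.15, adjusted p = 0.458; -0.93 on log2(TPM + 1), 0.02 above the median gene). The summed level of both copies was 92.7 ± 10.5 CPM (SD, n = 3) in cultured libraries. The sum spanned 151 to 216 CPM in the 4 transplanted libraries, and all 4 resident libraries fell inside that span.

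H2-Oa and H2-Ob, the chains of the H2-DM inhibitor H2-O, fell further in culture than the other editor genes, though no further than H2-Eb1 did. H2-Oa had 36.6, 36.2, 39.2 and 48.2 CPM in resident, 44.2, 48.9, 37.3 and 38.0 CPM in transplanted and 2.39, 3.34 and 2.44 CPM in cultured libraries. Resident and transplanted cells overlapped (log2 fold change 0.08 ± 0.12, edgeR, adjusted p = 0.71), and cultured cells were lower than resident ones by -3.84 ± 0.19 (edgeR, adjusted p = 1.96e-07). H2-Ob had 76.9, 71.3, 84.2 and 79.7 CPM in resident, 66.9, 59.7, 47.4 and 63.8 CPM in transplanted and 2.86, 3.24 and 2.34 CPM in cultured libraries. The cultured level was again far below the others, with a log2 fold change of -4.75 ± 0.15 from resident cells (edgeR, adjusted p = 1.83e-08). H2-Ob was also lower in transplanted than in resident cells by -0.39 ± 0.10 (edgeR, adjusted p = 0.0353), and these ranges did not overlap. That call did not hold without resident replicate 1, 3 or 4 (adjusted p = 0.0577, 0.0799 and 0.074), nor with all 3 groups in 1 fit (0.0724) or with the replicate block (0.0585).

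Ciita, the transactivator (gene ID 12265, chr16:10480014-10531064 on GRCm38.p6), was the least abundant member by mean TPM in each group. It had 1.81, 3.18, 2.90 and 3.48 CPM in resident and 1.73, 2.07, 2.14 and 2.03 CPM in transplanted libraries. The ranges overlapped through resident replicate 1, and the log2 fold change of -0.50 ± 0.22 did not pass the test (edgeR, adjusted p = 0.175). The level rests on 40 to 76 counts in a resident and 38 to 46 in a transplanted library, and resident libraries had an SD of 0.41 on the log2 scale. Cultured libraries had 0.239, 0.436 and 0.390 CPM, from 5 to 9 counts each. The log2 fold change from resident cells was -2.94 ± 0.40 (edgeR, adjusted p = 0.000115), and transplanted cells lay above cultured ones by 2.46 ± 0.39 (edgeR, adjusted p = 0.000292).

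**Figure D2:**
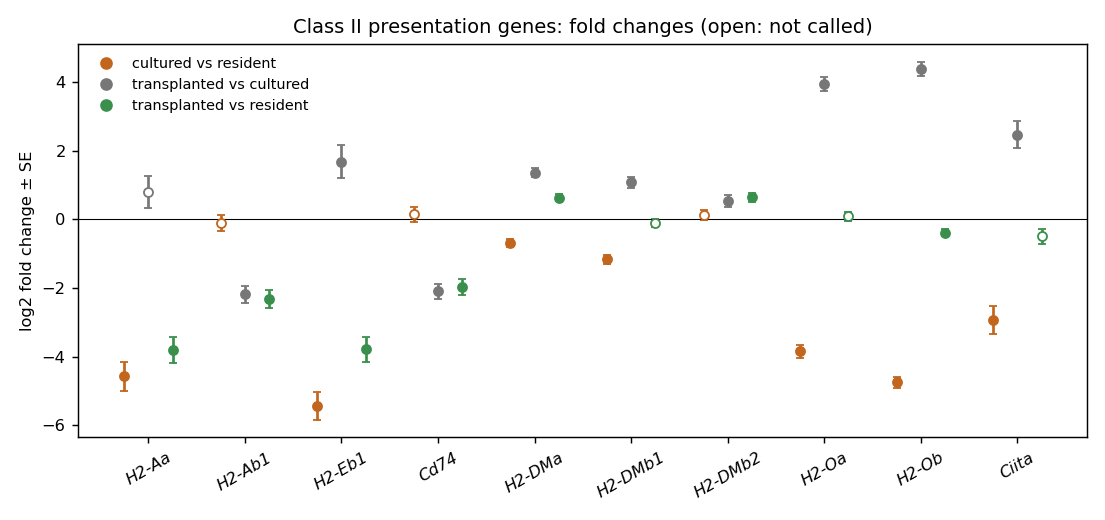
Log2 fold change ± SE of each class II gene in the 3 comparisons of cultured, resident and transplanted cells, from edgeR. Against resident cells, transplanted cells fell in the chains and Cd74 (-1.97 to -3.81), whereas cultured cells fell most in H2-Aa, H2-Eb1, H2-Oa, H2-Ob and Ciita (-2.94 to -5.43).

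Counted over all 10 members, cultured cells had 7 lower and 0 higher than resident cells, where 37.2% of 12406 genes tested were lower and 37.9% higher. Transplanted cells had 7 higher and 2 lower than cultured ones, where 36.9% of 12284 genes were higher and 35.5% lower. These comparisons share libraries with each other and with the comparison of transplanted and resident cells, so their counts are not independent. All 5 editor genes and Ciita were higher in transplanted than in cultured cells, for example H2-Oa by 3.93 ± 0.20 and H2-Ob by 4.38 ± 0.20 on the log2 scale. H2-DMb2 was the smallest of these (0.54 ± 0.17, adjusted p = 0.0185), a call lost without transplanted replicate 1 (adjusted p = 0.0615) or 2 (0.0514). H2-Ab1 and Cd74 were the 2 lower members.

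The order of levels within a group was read from TPM, which is scaled for gene length and so can be compared between genes. In resident cells H2-DMb1 (358 TPM), H2-DMa (332) and Cd74 (230) led, followed by H2-Ab1 (121), H2-Oa (103), H2-Ob (67.4), H2-Aa (63.2), H2-Eb1 (42.3), H2-DMb2 (26.1) and Ciita (0.870). Neighbours in this order overlapped in range, except H2-Oa with H2-Ob and H2-DMb2 with Ciita. In transplanted cells H2-DMa (536 TPM) and H2-DMb1 (337) led, H2-Oa (111) stood above Cd74 (59.9), and H2-Ob (52.3), H2-DMb2 (41.5), H2-Ab1 (24.8), H2-Aa (4.58), H2-Eb1 (3.10) and Ciita (0.528) followed. Here the neighbours from Cd74 down to H2-Ab1 overlapped, as did H2-Aa with H2-Eb1, and all other neighbours were apart. In cultured cells Cd74 led with 118 TPM, followed by H2-DMa (97.9), H2-DMb1 (73.9) and H2-Ab1 (51.6), with H2-Oa at 3.31, and the neighbours that overlapped were Cd74 with H2-DMa and H2-Aa with H2-Ob. Ranked among all 16894 genes by mean TPM, Cd74 was 593rd in resident, 951st in cultured and 2592nd in transplanted cells, whereas H2-DMa was 370th, 1113th and 200th.

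Ratios of TPM within a library, which do not depend on how libraries are scaled to each other, showed 3 different mixtures; they are given as a description. For H2-Aa over its partner H2-Ab1 the ratio was 0.427 to 0.583 in resident, 0.111 to 0.337 in transplanted and 0.0129 to 0.0329 in cultured libraries. No range overlapped another. H2-Eb1 over H2-Ab1 gave the same order, with 0.316 to 0.387, 0.0837 to 0.199 and 0.00803 to 0.00914. Cd74 over H2-Ab1 was nearly constant by comparison, at 1.88 to 1.92 in resident, 2.12 to 3.07 in transplanted and 2.17 to 2.36 in cultured libraries. H2-DMa over H2-Ab1 was 1.80 to 4.06 in resident and 1.53 to 2.18 in cultured libraries, but 13.6 to 30.5 in transplanted ones. H2-DMa over H2-Oa, an editor set against its inhibitor, was 2.75 to 3.79 in resident, 4.38 to 5.22 in transplanted and 23.5 to 33.6 in cultured libraries. H2-DMa over H2-Ab1 was thus highest in transplanted libraries, which does not extend to the other chains, since H2-Aa and H2-Eb1 were very low in culture too. H2-DMa over H2-Oa was highest in cultured libraries.

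**Figure D3:**
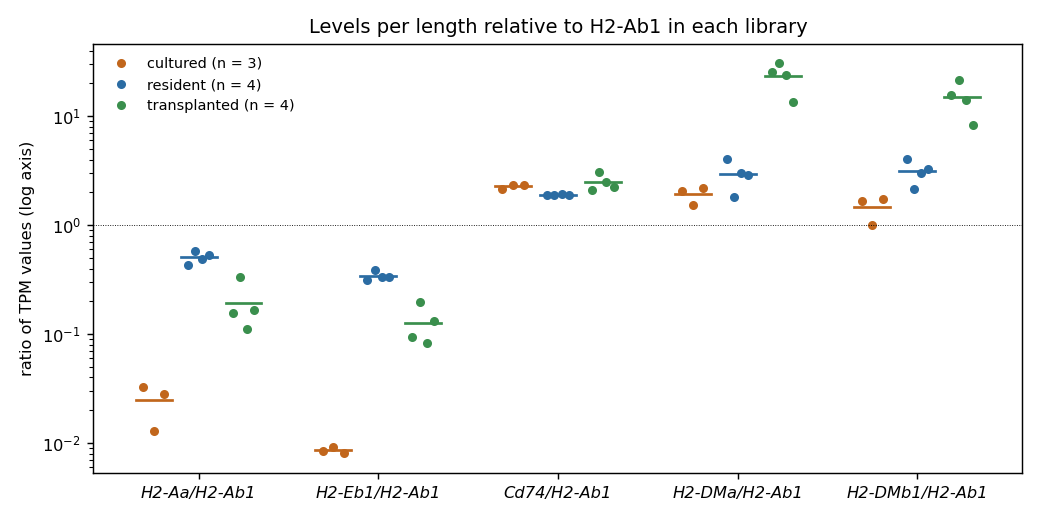
Ratios of the TPM of 5 class II genes to that of H2-Ab1 within each library (log axis), in cultured (n = 3), resident (n = 4) and transplanted (n = 4) cells; each point is 1 library and each bar a group mean. The ratio of H2-Aa to H2-Ab1 separates all 3 groups, and that of H2-DMa to H2-Ab1 is at least 13.6 in transplanted libraries and at most 4.06 elsewhere.

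The chains, Cd74 and Ciita also varied more between resident libraries than the median gene did. The SD of log2 CPM over the 4 resident libraries was 0.64 for H2-Aa, 0.58 for H2-Eb1, 0.46 for H2-Ab1, 0.45 for Cd74 and 0.41 for Ciita, against 0.16 for H2-DMa, 0.10 for H2-Ob and a median of 0.13 over all genes. The mean deviation of the chains and Cd74 (4 genes) from the group mean was -0.71, 0.58, 0.11 and 0.02 log2 units in resident replicates 1 to 4, and -0.18, 0.13, -0.59 and 0.63 in the transplanted ones. Resident replicate 1 was the lowest and replicate 2 the highest of its group in all 4 genes, and transplanted replicate 4 the highest of its group. They did not always go together: transplanted replicate 2 had the lowest H2-Ab1 of its group (8.26 CPM) with nearly the highest H2-Aa (2.59 CPM). In cultured replicate 2, H2-Aa was at its lowest (0.726 CPM) and the other 3 at their highest. The SD in transplanted libraries ran from 0.37 for Cd74 to 0.72 for H2-Aa.

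That mean deviation was compared with the deviation of every other gene over the 11 libraries, for 12580 genes, as a description. Among the members outside the 4, Pearson's r was 0.482 for Ciita, 0.327 for H2-Ob, 0.311 for H2-DMb1, 0.117 for H2-Oa, 0.081 for H2-DMa and -0.159 for H2-DMb2. The genes most like it were Gm2897 (0.99), Atg4a (0.933), Adgre5 (0.931), Aldh1a3 (0.929) and Zfp945 (0.921). Cd9, a tetraspanin found at 1000 to 1160 CPM in each group, followed with 0.905. Some of these genes lay near the floor. Gm2897 and Aldh1a3 had a mean of 0 CPM in cultured libraries, and Adgre5 had 0.326 CPM in resident and 0.203 CPM in transplanted ones. The named genes are the highest of 12580 values over 11 libraries, so selection alone raises their r. The points share library, depth and preparation.

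All members except Cd74 and Ciita lie together on chromosome 17, so position was set against response. On GRCm38.p6 they span 224.3 kb from the start of H2-Oa to the end of H2-Eb1 (chr17:34092379-34316674), with Psmb9, Tap1, Psmb8 and Tap2, which make and carry peptides for class I molecules, between H2-DMb1 and H2-Ob. In transplanted against resident cells only Tap1 of 6 tested neighbours that are no members was called (0.33 ± 0.09 on the log2 scale, edgeR, adjusted p = 0.0366). Over all genes tested, 7.17% were higher and 5.86% lower. Tap2, Psmb8, Psmb9, Brd2 and Btnl2 lay between -0.23 and 0.11. H2-Ob ends 17.3 kb before H2-Ab1, and the log2 fold change passed from -0.39 at H2-Ob to -2.32 at H2-Ab1. The 3 chain genes at -2.32 to -3.81 occupy 53.4 kb, and Btnl2 beyond them was not called (-0.23 ± 0.56).

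**Figure D4:**
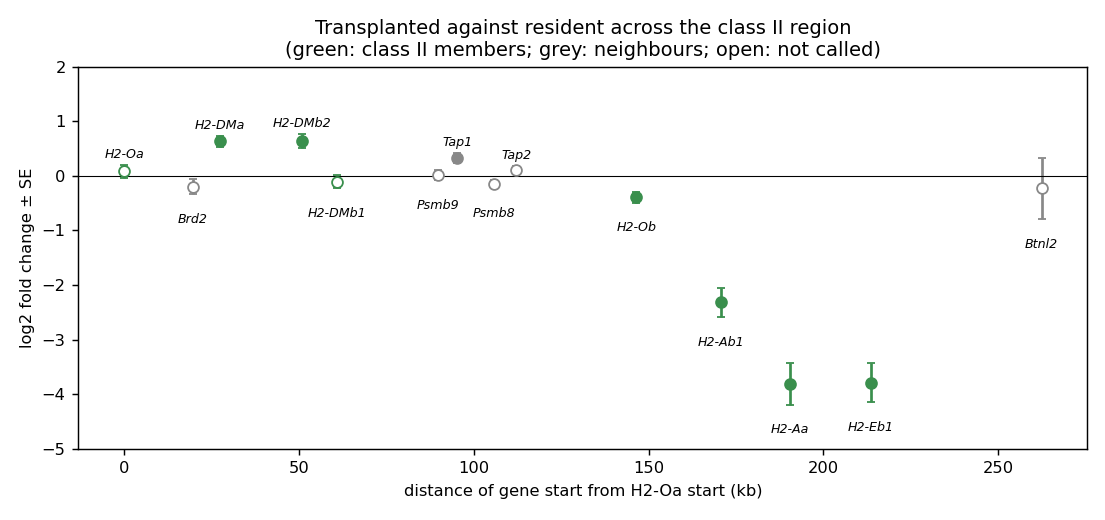
Log2 fold change ± SE of transplanted against resident cells (edgeR) for class II genes (green) and neighbouring genes (grey), by distance of the gene's start from the start of H2-Oa in kb; open points were not called. The genes up to H2-Ob lie between -0.39 and 0.64, and H2-Ab1, H2-Aa and H2-Eb1 lie between -2.32 and -3.81.

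The factors that act upstream of these genes were largely level between transplanted and resident cells. None of the 7 genes for the promoter complex (Rfx5, Rfxap, Rfxank, Creb1, Nfya, Nfyb, Nfyc) was called, with a median log2 fold change of -0.06, and neither was any of Spi1, Irf8 and Irf4. Along the interferon-gamma route that induces Ciita, 2 of 9 tested genes rose and 0 fell, beside 7.17% and 5.86% of all genes tested. Irf1, a factor that binds the Ciita promoter, rose by 0.28 ± 0.07 (edgeR, adjusted p = 0.031). Ifng itself was too low to be tested. In cultured against resident cells 3 of the 7 promoter factors and 5 of the 9 route genes were lower, beside 37.2% of all genes tested, among them the receptor chain Ifngr1 (-1.67 ± 0.14) and Irf1 (-1.64 ± 0.10).

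No gene listed for antigen processing or costimulation was called lower with the chains in transplanted cells. Of 9 genes of endosomal processing 3 rose and 0 fell, beside 7.17% and 5.86% of all genes tested. At that share a list this short would hold few falls. The rises were led by Ifi30, a reductase that opens disulfide bonds of antigens (0.80 ± 0.16, edgeR, adjusted p = 0.00747). Of 5 tested genes of the costimulation list, which also holds inhibitory ligands, 2 rose, 0 fell and 3 were not called. Icosl, the ligand of the T cell receptor Icos, rose by 0.94 ± 0.09 (edgeR, adjusted p = 0.000106) and Cd274, which encodes the inhibitory ligand PD-L1, by 0.92 ± 0.11 (edgeR, adjusted p = 0.00051). Icosl stood at 105 to 125 CPM in resident, 207 to 257 CPM in transplanted and 8.11 to 18.0 CPM in cultured libraries. Of 3 turnover genes, Cd83, which protects class II from degradation, rose by 0.49 ± 0.12 (edgeR, adjusted p = 0.0232), and Marchf1, the ligase that marks class II for degradation, was not called (-0.12 ± 0.10). In cultured against resident cells, 6 of the 9 processing genes were higher and 1 lower, beside 37.9% and 37.2% of all genes tested. Ifi30 was higher there by 3.48 ± 0.13 and Marchf1 lower by -2.25 ± 0.16.

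Markers of other cells that carry class II did not all move the same way between the groups. Their values are given beside the fall of the chains. Of 10 markers of border-associated macrophages, 7 were lower in transplanted than in resident cells and 0 higher, beside 5.86% and 7.17% of all genes tested. The 3 not called went both ways: Ms4a7 (1.76 ± 0.62, edgeR, adjusted p = 0.0954), Clec12a (1.36 ± 0.68, 0.23) and Folr2 (-0.99 ± 0.30, 0.0551). The scavenger receptor gene Cd163 had 4.13 to 8.46 CPM in resident and at most 0.0961 CPM in transplanted libraries. Lyve1, a hyaluronan receptor gene, had 3.09 to 4.16 CPM against at most 0.432 CPM, and F13a1, a coagulation factor gene, 10.6 to 24.9 CPM against at most 1.78 CPM. Cd209f was at 0 in all transplanted libraries, at least 139-fold lower against 3 counts over the group.

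The summed level of the 10 border markers was 70.6, 128, 61.6 and 80.9 CPM in the resident libraries, 37.1, 25.8, 27.1 and 61.0 CPM in the transplanted ones and 3180 to 3500 CPM in the cultured ones. Resident replicate 2 and transplanted replicate 4 were the highest of their groups in this sum and in the 4 class II genes. In transplanted replicate 4 the sum came mostly from Ms4a7 (24.3 CPM), Mrc1 (22.2) and Clec12a (9.15), of which Ms4a7 and Clec12a also stand in the list of engrafted macrophage markers. Cd163 was at 0 in that library, and Lyve1 (0.0968 CPM) and F13a1 (0.484 CPM) lay below their level in transplanted replicate 2 (0.432 and 1.78 CPM). Resident replicate 1, the lowest in the class II genes, was not the lowest in the sum. The markers went both ways in cultured cells, where 6 of the 10 were higher than in resident cells and 3 were lower. Over all genes tested, 37.9% were higher and 37.2% lower. The 3 lower markers were Cd163 (-2.68 ± 0.45), Lyve1 (-3.07 ± 0.34) and Cd209f, at 0. Of the chains and Cd74, H2-Aa and H2-Eb1 had their lowest group mean in culture, and H2-Ab1 and Cd74 did not. The part of border macrophages in the class II difference was not tested.

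**Figure D5:**
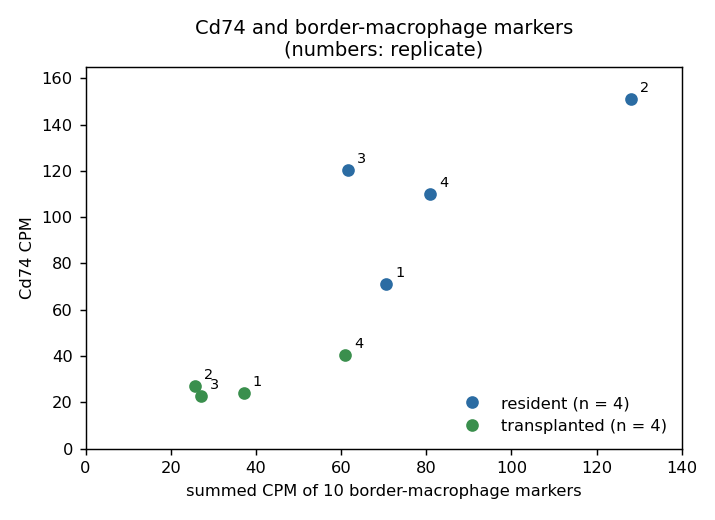
Cd74 (CPM) against the summed level of 10 border-macrophage markers (CPM) in the 4 resident and 4 transplanted libraries, each point 1 library numbered by replicate. Resident libraries (61.6 to 128 CPM of markers) all have more Cd74 than transplanted ones (25.8 to 61.0 CPM); cultured libraries, at 3180 to 3500 CPM of markers, are not drawn.

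Dendritic cell markers (10 genes) summed to 36.7 to 43.2 CPM in resident cells and to 40.5 to 59.2 CPM after transplantation, with Ffar2 at 0 in both and Cd209a at 0 in transplanted ones only. Of 7 tested, 2 were lower and 1 was higher in transplanted cells, beside 5.86% and 7.17% of all genes tested. Cd209a had 1.90 to 4.39 CPM in resident libraries and was at least 94.4-fold lower against 3 counts over the group. Siglecg was lower by -0.82 ± 0.18 (edgeR, adjusted p = 0.0131). Itgax was higher by 1.30 ± 0.25 (edgeR, adjusted p = 0.00687), and Zbtb46 did not pass the test (0.71 ± 0.21, adjusted p = 0.0504). B cell markers (7 genes) summed to 35.5 to 47.6 CPM in resident cells and to 17.8 to 32.6 CPM after transplantation, and Cd79b, a chain of the B cell receptor that microglia also express, had 17.6 to 26.3 CPM against at most 0.480 CPM. T cell markers (5 genes) summed to at most 2.01 CPM in either group, and 10 monocyte markers to between 12.3 and 20 CPM. These similar sums hide single genes that moved. Of 4 monocyte markers tested, 2 were higher and 1 was lower in transplanted cells, and the 1 T cell marker tested was lower. The 7 markers of engrafted macrophages summed to 448 to 656 CPM in resident cells and to 1010 to 1600 CPM after transplantation. Of these 7, 3 were higher, 0 lower and 4 not called in transplanted cells, beside the same shares of all genes. The 3 higher were Axl (3.67 ± 0.30), Cybb (2.76 ± 0.41) and Lyz2 (1.05 ± 0.16). Lyz2 was the largest part of the sum, with a mean of 300 CPM in resident and 618 CPM in transplanted cells. The part of these cell types in the class II difference was not tested.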

How the data were processed

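The authors deposited, per the file headers, an expected count, a TPM and an FPKM for 16894 Entrez genes in each of 11 libraries; the FPKM columns were not used. Per the labels' protocols, 1 ng of total RNA entered a Smart-Seq library. HISAT, Bowtie2 and GRCm38.p6 were used, per the submitters' processing notes; their versions and the counter, annotation and strand setting: not given in the sources used here. RefSeq symbols matched 16845 identifiers (99.7%).

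Expected counts were rounded and tested with edgeR 4.0.16 (R 4.3.3; TMM scaling, expression filter, quasi-likelihood test), 1 fit for each pair of groups, calling adjusted p under 0.05. CPM levels used TMM factors from all 11 libraries. Errors of log2 fold changes are approximate SE, the absolute log2 fold change divided by the square root of its F statistic. Floors of 3 counts cover counting error only. The fit was tested on simulated data. DESeq2 1.42.0, RLE scaling, no filter, 1 joint fit, limma 3.58.1 on log2(TPM + 1) and log2(TPM + 0.1), a replicate block and leaving out each library were alternatives.

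All 10 members are named; from other lists, counts and up to 4 genes with the smallest adjusted p, and marker genes by level; 1 gene of these lists is not reported here. The members and lists were chosen with earlier results of these data known. Same-numbered replicates of different groups correlated at -0.069 to 0.054, so numbers were not taken as pairs.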

Additional observations from a re-analysis of the deposited data

How the results depend on the processing

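The counts of called members stayed within 1.5 times of their main value in all 86 recomputed counts. Without 1 library each, they were 7 to 7 lower and 0 to 0 higher (cultured against resident), 6 to 7 higher and 2 to 2 lower (transplanted against cultured), and 2 to 2 higher and 4 to 5 lower (transplanted against resident). Of the member fold changes recomputed, 8 lost the call, 4 gained it and 4 turned with a call. Leaving out a library also moved the sign of values not called in any such fit: Cd74 (-0.07 to 0.29) and H2-Ab1 (-0.31 to 0.04) in cultured against resident cells, and H2-Oa (-0.02 to 0.17) in transplanted against resident cells. On TPM, cultured against resident turned to -0.92 (TPM + 1) and -0.93 (TPM + 0.1) for Cd74 and to -0.93 and -0.97 for H2-DMb2, and H2-Ab1 became called (-1.17). On that scale the median of all genes moved to -0.95 (TPM + 1), with 20.3% of calls higher against 50.5% in the main analysis; relative to that median Cd74 was at 0.03, H2-DMb2 at 0.02 and H2-Ab1 at -0.22. Between transplanted and cultured cells the TPM median was 0.98, 80.8% of calls were higher against 51%, and H2-Aa became called (1.26). Ciita, under a mean of 1 TPM, was not tested there. With the replicate block, 4 members were lower and 2 higher in transplanted against resident cells, and 6 higher and 2 lower against cultured cells. Genes called higher and lower over the whole table in transplanted against resident cells were 855 and 699, 507 and 405 with all groups in 1 fit, and 511 to 875 and 509 to 878 without 1 library each. Low counts limit H2-Aa, H2-Eb1 and Ciita in cultured cells.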
